A study of Mus musculus with 16 samples.

Results

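The p38 kinases, the kinases that activate them and the kinases they activate in turn were followed across 16 arrays of sorted mouse luminal mammary cells. The members are 10 named genes, and every probe set annotated to exactly 1 of their symbols was taken. This gave 18 of the 45141 probe sets of the array, for 9 of the 10 genes. Mapk11, the gene of p38β, was matched to none and was not analysed here. Of the 18 probe sets, 16 were tested, having a mean log2 signal no lower than 3.67, the 25th percentile of the array. The remaining 2, both of Rps6ka5, are described without a test.

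Luminal cells were isolated by fluorescence-activated cell sorting, and total RNA was hybridised to Affymetrix mouse genome arrays. The labels give 4 groups of 4 arrays, and all of them carry MMTV-Cre, a Cre recombinase transgene driven by a mammary tumour virus promoter that is active in mammary epithelium. The group p38a-lox, MMTV-Cre, MMTV-PyMT (called p38a-lox PyMT) and its control MMTV-Cre, MMTV-PyMT (called PyMT) came from mice of 6 weeks that also express the polyoma middle T oncogene from the same kind of promoter. The group p38a-lox, MMTV-Cre (called p38a-lox) and its control MMTV-Cre came from mice of 9 weeks. PyMT and age therefore cannot be told apart in any comparison of arrays with and without PyMT. The labels do not say whether each array is a separate animal, so a p value reflects only how much these samples vary, and that variation may be technical. They also do not say whether a mouse carries 1 or 2 floxed alleles.

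Signals of stress, cytokines and growth factors reach the p38 kinases through a cascade in which the kinases MKK3 and MKK6 (Map2k3 and Map2k6) phosphorylate p38 on a threonine and a tyrosine. The family has an α form, which most cells express (Mapk14), and β, γ and δ forms (Mapk11, Mapk12 and Mapk13) with more restricted expression; p38γ is abundant in muscle and p38δ in epithelia. Active p38α phosphorylates the kinases MK2 and MK3 (Mapkapk2 and Mapkapk3), which stabilise short-lived cytokine messages, and MSK1 (Rps6ka5), which acts on chromatin and on CREB. MK5 (Mapkapk5) is related in structure and also binds the atypical kinase ERK3. The cascade is switched by phosphorylation, which these arrays do not measure; they measure messenger RNA.

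The values are log2 signals, and a difference of 1 is a doubling. Array medians lay between 4.63 and 4.88, pairwise correlations between 0.885 and 0.990, and p38a-lox replicate 2 and PyMT replicate 4 had the lowest median correlation with the other arrays (0.934 each). The luminal keratin Krt8 and the epithelial adhesion molecule Epcam passed the filter, at 12.28 and 11.49 over the 16 arrays. The leukocyte marker Ptprc, at 2.83, did not, but 8 of 12 listed immune markers did. Among these Cd68 averaged 7.68 and S100a8 ran from 4.21 to 10.48. The basal keratin Krt5 ran from 6.30 to 11.52, and its mean of 9.34 lay above 95.6% of probe sets. The fibroblast marker Dcn ran from 5.10 to 9.82. RNA of genes listed as markers of other cell types was thus present, in amounts that differed between arrays. Whether it came from other cells or from the sorted luminal cells was not tested. In bulk RNA, fewer cells of a type and less RNA per cell cannot be told apart.

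Averaged over the genotypes, a contrast chosen after the values were seen, the array signals of a p38 activator and of a p38 kinase moved in opposite directions with PyMT. There 3 of the 16 member probe sets passed the threshold, beside 6.00% of all tested probe sets. In the separate comparisons only Mapk12 in PyMT against MMTV-Cre passed (limma adjusted p = 0.0467), a call that often ended when 1 array was left out. Map2k3 rose 2.49-fold over both genotypes (log2 difference 1.32 ± 0.23, standard error), and Mapk12 fell by 1.54 ± 0.27 on the log2 scale, which is 2.91-fold. Between p38a-lox arrays and their controls, 0 of the 16 probe sets were called, with or without PyMT, beside 0% of all 22996 tested probe sets. This count is therefore not particular to the members. The targeted gene Mapk14 did not have a lower mean in p38a-lox arrays than in MMTV-Cre arrays for any of its 6 probe sets. Its highest-mean probe set nevertheless differed in opposite directions within the lower and higher ranges of sample title numbers described below. With PyMT most of the 6 had a slightly lower mean in p38a-lox PyMT arrays than in PyMT arrays.

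The promoters of Map2k3 and Mapk12 are shown because these are the members that passed. Each window runs from 250 bases before to 50 bases after the RefSeq start (GRCm38.p6) and is written 5′ to 3′ along the gene's own strand. The Map2k3 window is chr11:60931804-60932103 on the plus strand, and the Mapk12 window is chr15:89140654-89140953 on the minus strand. Capitals mark matches on either strand to the GC box GGGCGG, the CCAAT box CCAAT, the E-box CACGTG, the AP-1 site TGANTCA and the cAMP response element TGACGTCA, none of which overlap each other in these windows.
Map2k3: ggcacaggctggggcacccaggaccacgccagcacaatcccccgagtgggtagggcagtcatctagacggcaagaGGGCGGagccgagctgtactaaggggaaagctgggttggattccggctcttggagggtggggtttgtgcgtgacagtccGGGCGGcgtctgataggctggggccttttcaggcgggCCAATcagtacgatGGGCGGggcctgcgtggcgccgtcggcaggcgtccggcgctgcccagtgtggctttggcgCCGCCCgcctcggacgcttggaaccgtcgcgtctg
Mapk12: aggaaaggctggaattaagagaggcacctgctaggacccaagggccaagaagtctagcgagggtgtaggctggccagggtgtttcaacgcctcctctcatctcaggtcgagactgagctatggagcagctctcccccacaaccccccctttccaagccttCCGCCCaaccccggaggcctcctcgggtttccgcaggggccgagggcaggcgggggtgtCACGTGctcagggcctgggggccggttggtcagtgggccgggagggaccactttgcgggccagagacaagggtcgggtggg

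The Map2k3 window held 4 GC boxes and 1 CCAAT box, and the Mapk12 window 1 GC box and 1 E-box. Of all 32851 promoter windows in the RefSeq table, 35.7% held a GC box, 37.4% a CCAAT box, 7.15% an E-box, 7.81% an AP-1 site and 1.79% a cAMP response element. The letters of the AP-1 site and of the cAMP response element were in neither of these windows. Among the 14 windows of all 10 member genes, 1 of the 3 windows of Map2k6 held an AP-1 site and none held a cAMP response element. These matches describe letters only.

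Mapk14, the gene of p38α, was read by 6 probe sets. The one with the highest mean (1416703_PM_at) had log2 signals of 7.09, 7.25, 7.34 and 7.24 in p38a-lox PyMT arrays, against 7.17, 7.12, 7.64 and 6.88 in PyMT arrays. It had 6.79, 6.37, 7.91 and 8.16 in p38a-lox arrays, against 7.11, 7.43, 5.56 and 6.02 in MMTV-Cre arrays. The p38a-lox arrays without PyMT hold both the highest values and some of the lowest, and the groups overlapped in each comparison. The difference was 0.03 ± 0.42 with PyMT (95% interval −0.86 to 0.92, exact permutation p = 0.886) and 0.78 ± 0.42 without PyMT (−0.11 to 1.67, exact permutation p = 0.257), where 4 arrays against 4 can give no p below 0.0286. With PyMT 5 of the 6 probe sets had a lower mean in p38a-lox PyMT arrays, by at most 0.38, and without PyMT 0 of the 6 had. The sources used here give neither the part of Mapk14 between the loxP sites nor the part each probe set reads, so these signals do not check the deletion, and a direction drawn between these groups rests on the genotype labels.

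**Figure D1:**
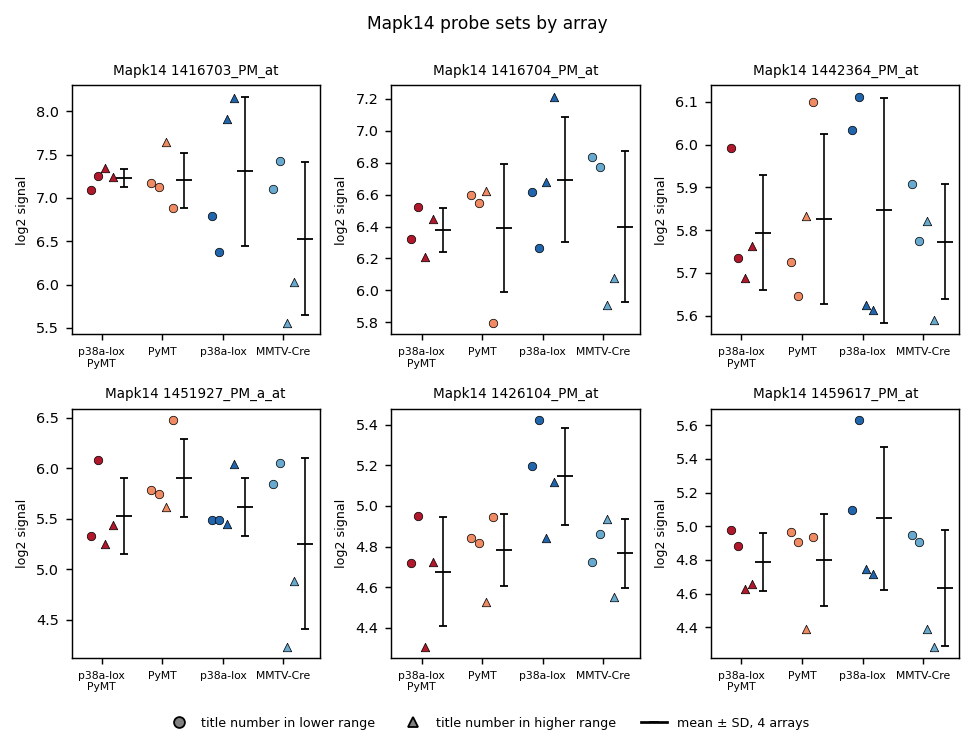
Log2 signal (vertical axis, scaled per panel) of the 6 Mapk14 probe sets in the 16 arrays, with circles and triangles for sample titles numbered in the lower and the higher range and bars for the mean ± SD of 4 arrays. In the first panel the 4 p38a-lox PyMT arrays lie between 7.09 and 7.34, while the p38a-lox arrays spread from 6.37 to 8.16 and the MMTV-Cre arrays from 5.56 to 7.43.

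The 6 probe sets did not all follow each other. Over the 16 arrays the Pearson correlations of their 15 pairs ran from −0.35 to 0.74, as a description of arrays that share their normalisation. Probe sets 1416703_PM_at and 1416704_PM_at had the highest (0.74), and 1426104_PM_at and 1459617_PM_at had 0.69 with each other. Among the 8 arrays without PyMT, the first pair and 1451927_PM_a_at correlated at 0.83 to 0.93, while 1416703_PM_at had 0.06 and 0.17 with 1426104_PM_at and 1459617_PM_at. In these arrays 1442364_PM_at, 1426104_PM_at and 1459617_PM_at correlated with each other at 0.66 to 0.80. The probe set 1426104_PM_at had 5.20, 5.42, 4.84 and 5.12 in p38a-lox arrays and 4.72, 4.86, 4.93 and 4.55 in MMTV-Cre arrays. Its difference was 0.38 ± 0.16 (limma adjusted p = 0.999), and the arrays overlapped. In p38a-lox PyMT against p38a-lox it was −0.47 ± 0.16 (limma adjusted p = 0.227).

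Sample titles carry numbers of unstated meaning, 9 of them in a lower and 7 in a higher range with a gap between. Within the lower range the Mapk14 probe set 1416703_PM_at was lower in the arrays labelled p38a-lox than in those labelled MMTV-Cre, by −0.69, and within the higher range it was higher, by 2.24, with 2 arrays against 2 in each. With PyMT the corresponding differences were 0.12 and −0.35, the second with 1 PyMT array. The probe sets 1416704_PM_at (−0.36 and 0.95) and 1451927_PM_a_at (−0.46 and 1.18) turned the same way, whereas 1426104_PM_at (0.52 and 0.24) and 1459617_PM_at (0.43 and 0.39) kept their sign and 1442364_PM_at (0.23 and −0.09) turned the opposite way. Those that kept their sign had low signal, with means of 4.84 and 4.82 over the 16 arrays, near the median of 4.73 over all probe sets. Among other members, Mapkapk3 had −0.59 and 0.91 at 1434815_PM_a_at, Mapk12 had −1.11 and 0.66, and Mapkapk2 had −0.75 and 0.28 in the lower and higher range. Of the 16 member probe sets 9 changed sign between the ranges in one direction or the other, beside 64.3% of all 22996 probe sets tested, so the share was no higher among the members. The mean level of 19 cell cycle genes moved alongside, at 5.96 and 7.56 in the lower and higher range of the arrays labelled p38a-lox and 7.44 and 6.34 in those of the arrays labelled MMTV-Cre; its part in the turn was not tested.

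**Figure D2:**
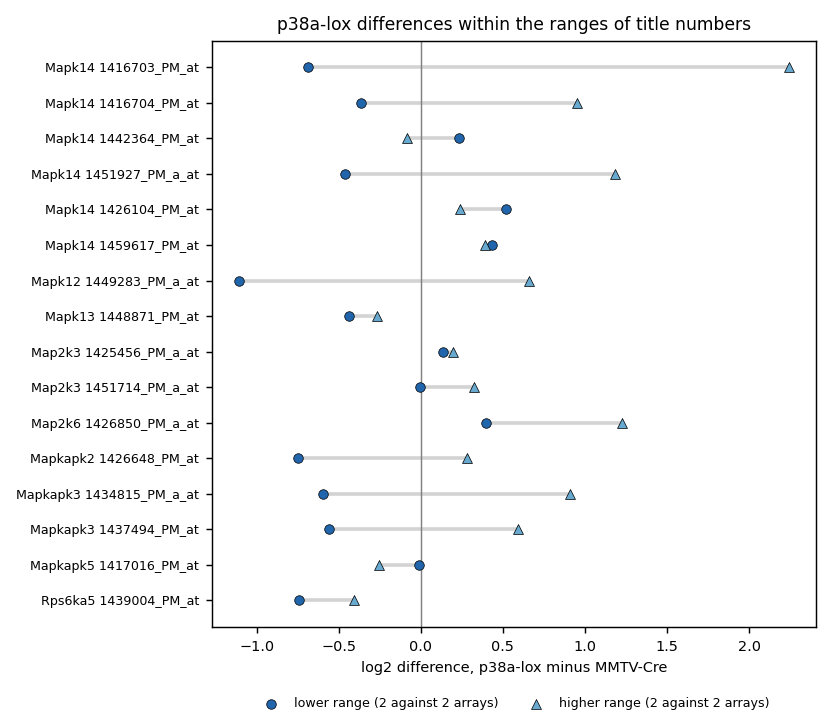
Log2 difference between arrays labelled p38a-lox and arrays labelled MMTV-Cre (horizontal axis) for each tested member probe set, computed within the lower (circles) and the higher (triangles) range of title numbers, with 2 arrays against 2. The widest gap is that of Mapk14 1416703_PM_at, from −0.69 to 2.24, while Map2k3 1425456_PM_a_at has 0.13 and 0.19.

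Mapk12 encodes p38γ, and its single probe set (1449283_PM_a_at) separated arrays with PyMT from those without. It had 6.57, 5.84, 5.64 and 6.77 in p38a-lox PyMT arrays, against 7.59, 6.77, 7.81 and 8.12 in p38a-lox arrays. It had 6.33, 6.61, 5.52 and 5.86 in PyMT arrays, against 7.97, 8.60, 6.86 and 7.76 in MMTV-Cre arrays. The PyMT arrays all lay below the MMTV-Cre arrays, and the p38a-lox PyMT arrays overlapped the p38a-lox arrays only at 6.77, the highest of the first and the lowest of the second. Mapk12 fell by 1.72 ± 0.39 in PyMT against MMTV-Cre (6.08 ± 0.484 against 7.80 ± 0.722, SD, n = 4 each; limma adjusted p = 0.0467). It was the 1 of 16 member probe sets called in that comparison, beside 1.06% of all tested probe sets in either direction and 0.304% called lower. In p38a-lox PyMT against p38a-lox the difference was −1.37 ± 0.39 (limma adjusted p = 0.134), and limma called 0 of 16 there, beside 0.613%, with 4 at an unadjusted p under 0.05, beside 12.4%; in PyMT against MMTV-Cre 3 were, beside 13.7%. These comparisons share no arrays, but the fit takes 1 spread per probe set from all 16, so their limma p values are not independent.

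Averaged over the genotypes, a contrast chosen after the values were seen, Mapk12 fell by 1.54 ± 0.27 (95% interval −2.12 to −0.96, limma adjusted p = 0.00503). In that contrast 3 of the 16 member probe sets were called, Mapk12 lower and both of Map2k3 higher, beside 6.00% of all tested probe sets (3.54% higher and 2.46% lower), and 4 had an unadjusted p under 0.05, beside 20.1%. The interaction of genotype with PyMT, which cannot be told apart from age, was 0.35 ± 0.55 for Mapk12 (−0.81 to 1.51). Differences with PyMT that lie over 1 log2 unit apart between the genotypes are thus within the interval. Within the lower and higher title ranges Mapk12 had −2.02 and −1.79 in PyMT against MMTV-Cre, the second with 1 PyMT array, and −0.97 and −1.76 in p38a-lox PyMT against p38a-lox. When each array was left out in turn, the call in PyMT against MMTV-Cre ended for 13 of the 16 (limma adjusted p up to 0.114), while the averaged call held in all 27 alternatives tried.

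Between p38a-lox arrays and their controls Mapk12 had −0.22 ± 0.39 without PyMT (95% interval −1.05 to 0.60) and 0.12 ± 0.39 with PyMT (−0.70 to 0.95). Mapk13, the gene of p38δ, is the chromosomal neighbour of Mapk14, with no protein-coding gene between them in the RefSeq table, as Mapk12 is of Mapk11. With PyMT, Mapk13 ran from 8.51 to 8.71 in p38a-lox PyMT arrays and from 8.57 to 8.93 in PyMT arrays. Without PyMT it had 8.22, 8.96, 8.27 and 8.57 in p38a-lox arrays, against 8.98, 9.07, 8.74 and 8.63 in MMTV-Cre arrays. The difference of −0.35 ± 0.16 was not called (limma adjusted p = 0.999), it kept its sign in both title ranges (−0.44 and −0.27), and with PyMT it was −0.12 ± 0.16. The arrays overlapped in both comparisons. With PyMT against without, Mapk13 had 0.09 ± 0.16 in p38a-lox genotypes and −0.15 ± 0.16 in controls.

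Map2k3 encodes MKK3, an activator dedicated to p38, and both of its probe sets were higher with PyMT. The first (1425456_PM_a_at) had 10.93, 11.18, 11.16 and 10.79 in p38a-lox PyMT arrays, against 9.44, 10.68, 9.07 and 9.16 in p38a-lox arrays. It had 10.75, 10.84, 10.62 and 10.28 in PyMT arrays, against 9.85, 9.99, 9.03 and 8.81 in MMTV-Cre arrays. In each pair the arrays with PyMT lay above all arrays without it, the nearest being p38a-lox replicate 2 at 10.68. The difference was 1.43 ± 0.33 in p38a-lox genotypes (limma adjusted p = 0.0628) and 1.20 ± 0.33 in controls (limma adjusted p = 0.0953), and the exact permutation p was 0.0286 in each, the smallest this design can give. Neither comparison passed in this fit. With title range as a block the difference in p38a-lox genotypes was called at the same size (1.43, limma adjusted p = 0.0279), as it was without MMTV-Cre replicate 2 (limma adjusted p = 0.0442). Averaged over the genotypes this probe set rose by 1.32 ± 0.23 (95% interval 0.82 to 1.81, limma adjusted p = 0.00503).

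The second Map2k3 probe set (1451714_PM_a_at) had 9.24, 9.46, 9.29 and 9.14 in p38a-lox PyMT arrays, against 7.23, 8.94, 7.10 and 7.17 in p38a-lox arrays. It had 9.31, 9.19, 8.71 and 8.05 in PyMT arrays, against 7.71, 8.48, 7.12 and 6.50 in MMTV-Cre arrays. PyMT replicate 4 and MMTV-Cre replicate 2 cross here, so the second pair overlaps. Averaged over the genotypes it rose by 1.52 ± 0.31 (limma adjusted p = 0.0118), and over the 16 arrays the probe sets of Map2k3 correlated at 0.98. Over the tested members, 2 probe sets did not overlap in PyMT against MMTV-Cre and 2 in p38a-lox PyMT against p38a-lox, beside 7.06% and 8.27% of all tested probe sets; they are Mapk12 and 1425456_PM_a_at in the first and both Map2k3 probe sets in the second.

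Without p38a-lox replicate 2 the first Map2k3 probe set was called in both comparisons, at 1.20 (limma adjusted p = 0.0320) in PyMT against MMTV-Cre and 1.80 (limma adjusted p = 0.00967) in p38a-lox PyMT against p38a-lox. Computed inside the lower title range it differed by 0.70 in the controls. Inside the higher range, where PyMT replicate 3 was the only PyMT array, it differed there by 1.70. In p38a-lox genotypes the higher range gave 1.86 and the lower a smaller difference of the same sign. The interaction with genotype was 0.23 ± 0.47 (−0.77 to 1.22). Between p38a-lox arrays and their controls the difference was 0.39 ± 0.33 with PyMT (−0.31 to 1.10, exact permutation p = 0.0571) and 0.16 ± 0.33 without PyMT (−0.54 to 0.87).

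Some markers of other cells moved with PyMT beside these genes. Of 11 basal markers 9 were tested, and averaged over the genotypes 5 rose and 0 fell, among them Krt5 (2.59 ± 0.51), Krt14 (2.51 ± 0.47), the basal transcription factor Trp63 (1.99 ± 0.28) and Snai2 (0.73 ± 0.11), beside 3.67% of all tested genes called higher. Those not called were Acta2 (1.33 ± 0.45), Cnn1 (0.34 ± 0.17), Myh11 (0.01 ± 0.38) and Oxtr (−0.25 ± 0.14). The mean level of the 9 basal markers ran from 7.08 to 7.88 in p38a-lox PyMT arrays and from 6.95 to 7.72 in PyMT arrays, against 5.31 to 6.95 in p38a-lox arrays and 5.64 to 7.25 in MMTV-Cre arrays. Of 8 tested immune markers S100a8 (3.03 ± 0.42) and Cd68 (1.75 ± 0.40) rose, while Ptprc, Cd3e and Itgam lay below the filter. The list did not rise as a whole, with 4 estimates higher, 4 lower and a median of 0.06. Of the 15 luminal markers tested, the transcription factor Ehf (−1.42 ± 0.31) and the claudin Cldn3 (−0.84 ± 0.20) fell and 0 rose, beside 2.51% of all tested genes called lower. The luminal list had 6 estimates higher, 9 lower and a median of −0.07. Of 6 tested fibroblast markers 1 rose, Fbln1 (0.81 ± 0.17), and limma called 0 of 9 endothelial markers. The mean level of the 8 immune markers, which includes S100a8 and Cd68, ran from 5.45 to 5.56 in p38a-lox PyMT arrays and from 5.53 to 6.03 in PyMT arrays. It ran from 4.71 to 5.38 in p38a-lox arrays and from 4.80 to 5.28 in MMTV-Cre arrays. The part of these cell markers, and of age, in the differences of Map2k3 and Mapk12 was not tested.

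**Figure D3:**
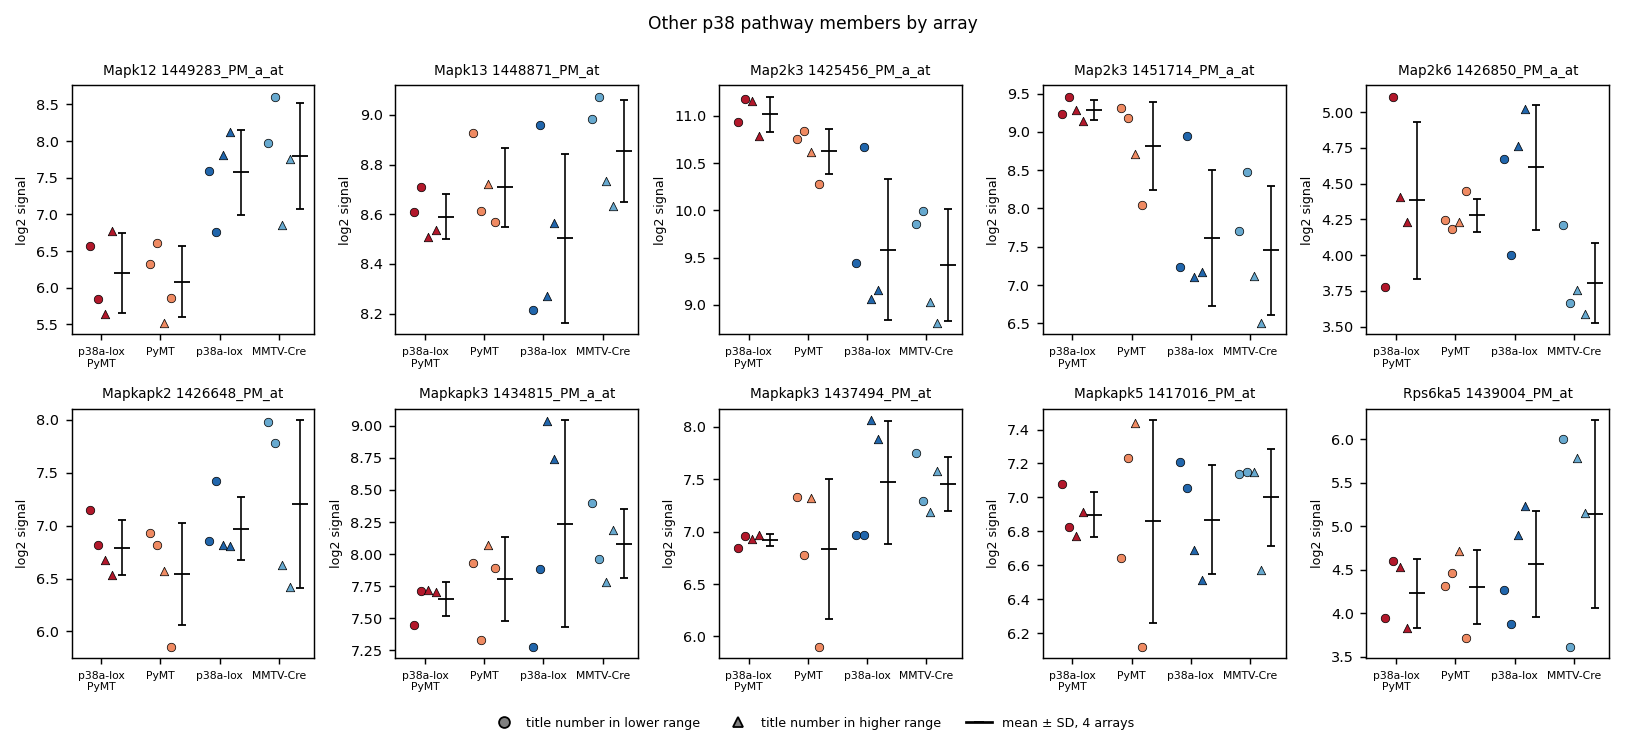
Log2 signal (vertical axis, scaled per panel) of the 10 tested probe sets of the other members in the 16 arrays, with symbols as for Mapk14 and bars for the mean ± SD of 4 arrays. Mapk12 is low in the 8 arrays with PyMT (5.52 to 6.77) and Map2k3 high (10.28 to 11.18 at 1425456_PM_a_at), while Mapkapk5 and Rps6ka5 overlap in every comparison.

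Map2k6 encodes MKK6, the other dedicated activator. It was read by 1 probe set of low signal, whose mean of 4.27 lay below the median of 4.73 over all probe sets. It had 4.67, 4.76 and 5.02 in p38a-lox replicates 1, 3 and 4, against 4.21, 3.67, 3.75 and 3.58 in MMTV-Cre arrays. Most of these MMTV-Cre values lie at or near the filter value of 3.67. The p38a-lox replicate 2 lay below the highest MMTV-Cre array and above the other 3. The difference of 0.81 ± 0.26 (95% interval 0.26 to 1.36) was the member with the smallest p in that comparison and was not called (limma adjusted p = 0.859, exact permutation p = 0.0571). With PyMT it was 0.10 ± 0.26, with 3.78, 5.11, 4.41 and 4.23 in p38a-lox PyMT arrays against 4.25, 4.18, 4.23 and 4.45 in PyMT arrays, and the interaction was −0.70 ± 0.37 (−1.48 to 0.08). Within the lower and higher title ranges the difference without PyMT was 0.39 and 1.22. With PyMT against without it was −0.23 ± 0.26 in p38a-lox genotypes and 0.47 ± 0.26 in controls, and neither was called.

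Over all members, limma called 0 of 16 probe sets in p38a-lox against MMTV-Cre, beside 0% of all probe sets, and 3 had an unadjusted p under 0.05, beside 4.71%. They are Map2k6, Mapk13 and Mapk14 1426104_PM_at. In p38a-lox PyMT against PyMT limma called 0, beside 0%, and 0 had an unadjusted p under 0.05, beside 3.69%. The median difference of the 16 was 0.16 in p38a-lox against MMTV-Cre and 0.01 in p38a-lox PyMT against PyMT, beside medians of 0.00 and −0.03 over all tested probe sets. The arrays of 0 members separated without overlap in either comparison, beside 2.16% and 2.64%. For the interaction limma called 0, beside 0%, and 0 had an unadjusted p under 0.05, beside 2.87%.

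**Figure D4:**
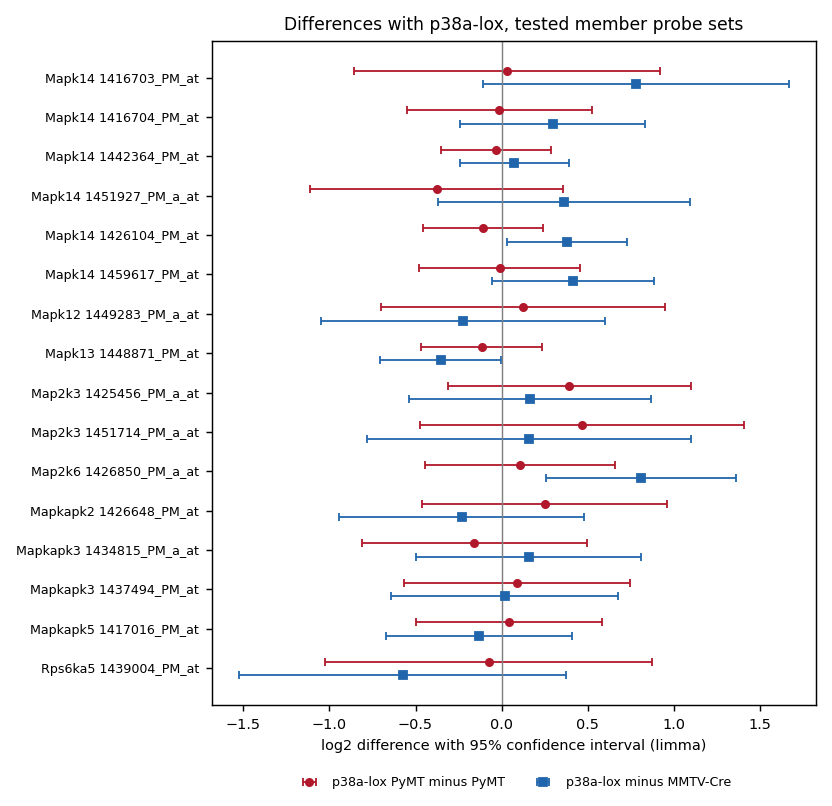
Log2 differences (horizontal axis) of the 16 tested member probe sets between p38a-lox and control arrays, with PyMT (circles) and without (squares), and 95% intervals from limma. All intervals with PyMT cross 0, and without PyMT those of Map2k6 (0.26 to 1.36), Mapk13 and Mapk14 1426104_PM_at do not.

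The effector kinases were not called in any comparison fitted to all 16 arrays without weights. Mapkapk2, the gene of MK2, had 7.15, 6.81, 6.68 and 6.53 in p38a-lox PyMT arrays, against 6.93, 6.82, 6.57 and 5.86 in PyMT arrays. It had 6.86, 7.42, 6.81 and 6.80 in p38a-lox arrays, against 7.98, 7.79, 6.63 and 6.42 in MMTV-Cre arrays, whose lower-range and higher-range arrays lie over 1 log2 unit apart. Its p38a-lox differences were 0.25 ± 0.33 with PyMT and −0.23 ± 0.33 without. In PyMT against MMTV-Cre it differed by −0.66 ± 0.33 (limma adjusted p = 0.410).

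Mapkapk3, the gene of MK3, had 7.45, 7.72, 7.72 and 7.71 at 1434815_PM_a_at in p38a-lox PyMT arrays, against 7.28, 7.89, 9.04 and 8.74 in p38a-lox arrays. It had 7.93, 7.33, 8.07 and 7.89 in PyMT arrays, against 8.40, 7.96, 7.78 and 8.19 in MMTV-Cre arrays. The highest values belong to p38a-lox replicates 3 and 4. With PyMT against without, this probe set differed by −0.59 ± 0.31 in p38a-lox genotypes (limma adjusted p = 0.468) and −0.28 ± 0.31 in controls (limma adjusted p = 0.767), and the second (1437494_PM_at) by −0.55 ± 0.31 and −0.62 ± 0.31. With array weights, which give less weight to arrays that vary more, both were called in p38a-lox PyMT against p38a-lox, at −1.14 and −0.98 (limma adjusted p = 0.00423 and 0.00721). The p38a-lox differences at 1434815_PM_a_at were −0.16 ± 0.31 with PyMT and 0.16 ± 0.31 without.

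Mapkapk5, the gene of MK5, had group means of 6.90 ± 0.133 in p38a-lox PyMT, 6.86 ± 0.596 in PyMT, 6.87 ± 0.321 in p38a-lox and 7.001 ± 0.285 in MMTV-Cre arrays (SD, n = 4 each), and all neighbouring groups overlapped. Rps6ka5, the gene of MSK1, was above the filter at 1439004_PM_at only. That probe set had 3.94, 4.60, 4.53 and 3.83 in p38a-lox PyMT arrays, against 4.26, 3.87, 4.89 and 5.23 in p38a-lox arrays. It had 4.32, 4.47, 4.72 and 3.71 in PyMT arrays, against 6.00, 3.61, 5.79 and 5.16 in MMTV-Cre arrays, where replicate 2 is the lowest of all 16. Its PyMT difference was −0.34 ± 0.45 in p38a-lox genotypes and −0.84 ± 0.45 in controls (limma adjusted p = 0.439). The control difference depended on single arrays, at −1.35 without MMTV-Cre replicate 2 (limma adjusted p = 0.0593) and −0.55 without MMTV-Cre replicate 1. Averaged over the genotypes it was −0.59 ± 0.31 (limma adjusted p = 0.328), and it was called without MMTV-Cre replicate 2 (−0.84, limma adjusted p = 0.0398). The other Rps6ka5 probe sets averaged 3.32 and 2.72 over the 16 arrays and ranged over 0.55 and 0.26 log2 units.

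**Figure D5:**
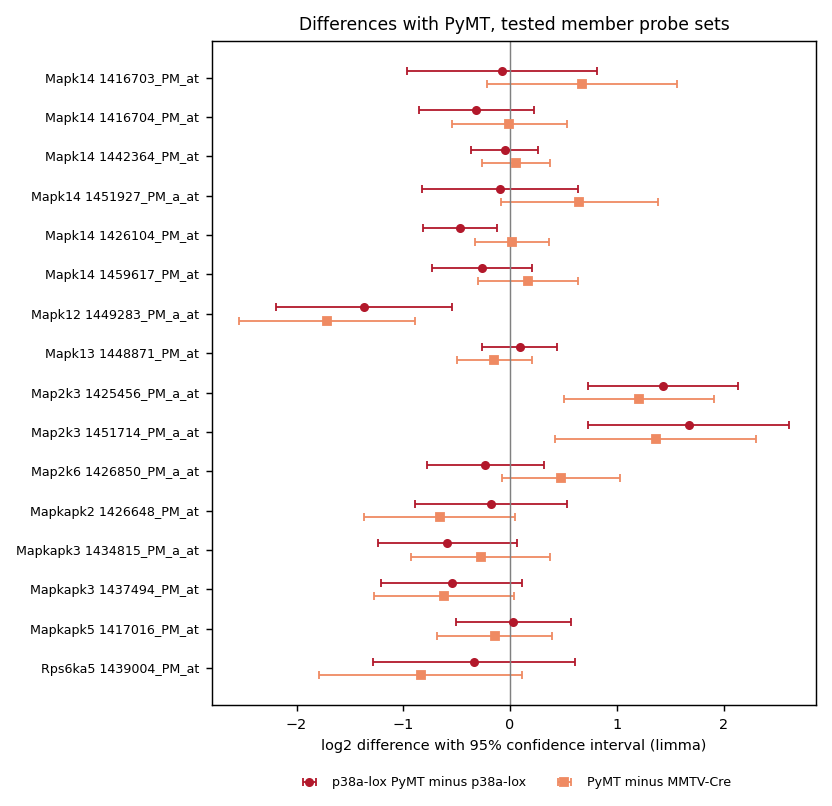
Log2 differences (horizontal axis) of the 16 tested member probe sets with PyMT against without, in p38a-lox genotypes (circles) and in controls (squares), and 95% intervals from limma. Mapk12 lies below 0 (−1.37 and −1.72) and both Map2k3 probe sets above 0 (1.20 to 1.67) in each genotype, and the intervals of these 3 do not reach 0, nor does that of Mapk14 1426104_PM_at in p38a-lox genotypes (−0.47).

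Other genes of the pathway were taken from lists, with 1 probe set a gene, and are given for PyMT averaged over the genotypes, where limma called 6.18% of 14410 genes (3.67% higher and 2.51% lower). All 25 listed upstream activators of p38 were tested, 1 rose and 5 fell, with a median of −0.10 beside 0.00 over all genes. The ubiquitin ligase Traf6, which links cytokine receptors to the kinase TAK1, fell by 1.46 ± 0.22 (limma adjusted p = 0.00179), the kinase Map3k1 fell by 1.08 ± 0.21 and the kinase Map3k3 by 0.74 ± 0.17. Gadd45a, a stress protein that can activate the kinase MTK1, rose by 1.14 ± 0.21.

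Of 12 tested p38 phosphatases, 1 rose and 2 fell, with a median of −0.29. Dusp1, a nuclear phosphatase that inactivates p38, rose by 1.14 ± 0.20 (limma adjusted p = 0.00409), and the phosphatases Ppm1d and Ppm1b fell by 0.69 ± 0.16 and 0.55 ± 0.15. Of 20 other p38 substrates 0 rose and 1 fell, the transcription factor Mef2a, by 1.22 ± 0.28, with a median of 0.00.

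Immediate early genes, whose induction by stress depends in part on MSK kinases, had 5 members that rose and 1 that fell among 15 tested, with a median of 0.62. Fosb rose by 2.14 ± 0.29 (limma adjusted p = 0.000854), the nuclear receptor Nr4a1 by 1.504 ± 0.27, Egr1 by 1.36 ± 0.32 and Ier3 by 0.74 ± 0.17. The 1 that fell was Klf4 (−1.76 ± 0.42), named after its value was seen. Egr1 had 0.14 ± 0.45 in p38a-lox genotypes and 2.59 ± 0.45 in controls, and the difference between these was not called (interaction −2.45 ± 0.64, limma adjusted p = 0.992). Of 12 tested messages that the MK2 target ZFP36 destabilises, 5 rose and 0 fell, with a median of 0.57, among them the chemokines Cxcl1 (2.22 ± 0.48) and Cxcl2 (2.48 ± 0.56) and the protease Plau (1.28 ± 0.32). Ier3 belongs to both lists. In p38a-lox PyMT against p38a-lox, limma called 2 genes of these pathway lists, Fosb (2.38 ± 0.41) and Vegfa (1.59 ± 0.31), beside 0.777% of all genes. In PyMT against MMTV-Cre it called Traf6, Dusp1, Fosb, Egr1, Egr2, Nr4a1, Cxcl1 and Cxcl2, beside 1.26%; Traf6 was lower (−1.58 ± 0.31) and the others higher, by 1.33 for Dusp1 to 3.85 for Cxcl2.

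In p38a-lox against MMTV-Cre and in p38a-lox PyMT against PyMT, limma called 0 genes of all these lists, beside 0% of all genes. Without PyMT the smallest p in the immediate early list belonged to Egr1 (2.75 ± 0.45, limma adjusted p = 0.154) and Egr2 (2.09 ± 0.38, limma adjusted p = 0.169), and in the ZFP36-controlled list to Vegfa (−1.35 ± 0.31, limma adjusted p = 0.479). Among the upstream activators it belonged to the MTK1 gene Map3k4 (0.79 ± 0.22) and the TAK1 adaptor Tab2 (0.56 ± 0.18), with limma adjusted p = 0.687 and 0.814. With PyMT the ZFP36-controlled list had a median of −0.32 and 10 of 12 lower estimates, and the immediate early list a median of −0.25 and 12 of 15 lower estimates, beside a median of −0.04 over all genes. The smallest p in them belonged to Cxcl2 (−1.88 ± 0.80) and Nr4a2 (−0.46 ± 0.20), each with limma adjusted p = 0.999. Without PyMT the medians of the same lists were 0.04 and −0.01.

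Genes with the most similar pattern were named by the highest Pearson correlation over the 16 arrays among the 14409 other tested genes, as a description of arrays that share their normalisation and groups. For Mapk14 they were Rnf135 (0.89), Cenpo (0.88), Plpp6 (0.87), Xpc (0.87) and Fech (0.85). For Mapk12 they were Tsc22d1 (0.93), Kctd20 (0.90), Grb7 (0.90), Ecscr (0.88) and Cpt1a (0.88). For Map2k3 they were Pfn1 (0.89), Plet1 (0.88), Snai2 (0.87), Spry4 (0.87) and Fosl1 (0.86). The highest correlation of the other 6 members ran from 0.82 for Map2k6 to 0.96 for Mapkapk2. Between members, Mapk12 and Map2k3 had −0.71, Mapk14 and Map2k6 0.60, and Mapk14 and Mapk12 0.06.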

How the data were processed

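The authors deposited log2 signals for each probe set on each array; the submitters' processing notes name RMA, and the sources used here give no version or settings. RMA normalises each array, so absolute transcript amounts cannot be read from these values; levels were set side by side only to apply the filter, to check cell markers and to choose a gene's probe set, and no difference between probe sets was computed. Of 45141 probe sets, 28898 carried exactly 1 symbol in the platform annotation, and 22996 of these passed the filter. limma 3.58.1 in R 4.3.3 fitted 1 mean per group over 16 arrays, with moderated two-sided tests, and a probe set was called where its p, adjusted by Benjamini-Hochberg across the 22996, was under 0.05. Errors after ± are standard errors for differences and SDs for group means. Gene lists used the probe set with the highest mean per gene (14410 genes). All 10 members are named with all probe sets; from lists, the rule was every called gene up to 4 by smallest p, or otherwise the 1 or 2 smallest, given in full for PyMT averaged over genotypes and in part elsewhere. Contrasts averaged over genotypes or backgrounds were added after seeing the data. The members and lists were chosen with earlier results of these data known. The fit was tested on simulated data. The number of arrays limits the precision. Promoter windows come from RefSeq (GRCm38.p6), and all 10 members matched by symbol. Alternatives were other filters, 1 value per gene, all probe sets, eBayes options, normalisations, array weights, fewer arrays and title range as a block.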

Additional observations from a re-analysis of the deposited data

Results flagged for a closer look

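In 7 of the 72 combinations of a member probe set and a group, 1 array stood apart from the other 3; chance flags about 1 in 20, or 3.6 here. PyMT replicate 4 had 5.80 at Mapk14 1416704_PM_at, against 6.55 to 6.62 in the other PyMT arrays, and PyMT replicate 3 had 4.39 at Mapk14 1459617_PM_at, against 4.91 to 4.97. At Mapk14 1451927_PM_a_at p38a-lox replicate 4 had 6.04, against 5.45 to 5.49 in the other p38a-lox arrays. Replicate 2 of p38a-lox had 8.94 at Map2k3 1451714_PM_a_at, against 7.10 to 7.23, and 7.42 at Mapkapk2 1426648_PM_at, against 6.80 to 6.86. Mapkapk3 1434815_PM_a_at had 7.45 in p38a-lox PyMT replicate 1, against 7.71 to 7.72. Mapkapk5 1417016_PM_at had 6.57 in MMTV-Cre replicate 4, against 7.14 to 7.15. No interaction of a member passed limma's threshold.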

How the results depend on the processing

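The counts of called member probe sets stayed at 0 for both p38a-lox comparisons, their average and the interaction in every alternative tried. In PyMT against MMTV-Cre the count of 1 (Mapk12) was 0 with no filter, with all probe sets of the array, with each array centred on its median and with only the arrays compared, and 3 with array weights (Mapk12 and both of Map2k3); leaving out 1 array gave 0 to 2. Without both p38a-lox replicate 2 and PyMT replicate 4 it was Map2k3 that was called there. In p38a-lox PyMT against p38a-lox the count of 0 was 1 with each array centred on its median, 1 with title range as a block and 2 without both p38a-lox replicate 2 and PyMT replicate 4, all of Map2k3, and 5 with array weights (both of Map2k3, both of Mapkapk3, and Mapk12); leaving out 1 array gave 0 to 2. Averaged over the genotypes the count of 3 was 6 with array weights, where both probe sets of Mapkapk3 and Rps6ka5 1439004_PM_at were added, and leaving out 1 array gave 3 to 4, with Rps6ka5 1439004_PM_at added without MMTV-Cre replicate 2. The cause of these moves was not tested. The averaged Map2k3 difference ran from 1.22 to 1.63 and the Mapk12 difference from −1.70 to −1.41. The Mapk14 difference ran from 0.38 to 1.496 without PyMT and from −0.09 to 0.18 with PyMT, uncalled throughout. Of 1716 single differences recomputed, 0 reversed with a call, and 79 uncalled ones changed sign. No paired analysis was possible because the labels carry no replicate numbers shared between groups.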
